A study of Mus musculus with 6 samples.

Results

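The genes described here are 48 genes of cholesterol synthesis, fatty acid synthesis and breakdown, and lipid storage and transport, measured in hepatic CD4 T cells. They were listed by gene symbol, and the list was made with earlier results of these data known. All 48 symbols were among the 28430 in the count table, and 45 passed the filter on low counts, as did 15694 genes in all. CD4 T cells were sorted from the livers of mice kept on a choline-deficient, high-fat diet low in methionine, which brings on fatty liver disease with inflammation, and total RNA was sequenced in bulk. The feeding lasted 8 weeks. One group was WT (3 libraries). The other was dKO (3 libraries), Nr4a1 fl/fl Nr4a2 fl/fl Cd4Cre animals, in which Cre under the Cd4 promoter deletes both nuclear receptor genes in CD4 and also in CD8 T cells while leaving the related Nr4a3 intact. Both groups had the diet, and no group on a standard diet was part of the comparison. The sources used here do not give the strain, sex and age of these mice, or whether cells of several mice were pooled.

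Cells make cholesterol from acetyl-CoA through the mevalonate steps to squalene, which is closed to lanosterol and trimmed to cholesterol. The same acetyl-CoA feeds fatty acid synthesis, after which elongases and desaturases shape the chains, and mitochondria oxidise them. Transcription of the synthetic enzymes depends on SREBP proteins, which the escort protein SCAP carries out of the endoplasmic reticulum when sterol is scarce and INSIG proteins hold back when it is plentiful. T cells draw on these pathways for membranes when they divide, and regulatory T cells are known for a distinct use of fatty acids and mevalonate products.

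Library totals ranged from 5747744 to 11078184 counted reads. CD4 T cell identity genes summed to between 5391 and 6288 CPM (counts normalised to a common library size) in the 6 libraries. The targeted genes were not lower in the libraries labelled dKO. Nr4a2 was at 160, 286 and 235 CPM in WT and at 478, 541 and 392 CPM in the libraries labelled dKO, so all dKO values were above all WT values (log2 fold change 1.05 ± 0.21, SE; edgeR adjusted p = 0.0308). Nr4a1 showed a log2 fold change of 0.39 ± 0.37 (edgeR adjusted p = 0.650) and Nr4a3 of 1.16 ± 0.37 (edgeR adjusted p = 0.170). The exons lost by the floxed alleles are not named in those sources, and the counts cover whole genes, so reads from lost and remaining exons cannot be told apart. Directions below are therefore those of the libraries labelled dKO against WT. Regulatory T cell (Treg) markers, 10 genes, summed to 1258 to 2021 CPM in WT and 3724 to 4802 CPM in dKO, with 7 of 10 called higher. In bulk RNA a change in the number of cells of one type and a change in RNA per cell cannot be told apart.

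Of the 45 lipid genes tested, 2 were called at an edgeR adjusted p under 0.05, both higher in dKO. These were Elovl6, the elongase that lengthens palmitate to stearate, and Stard4, a carrier that moves cholesterol between membranes. The 2 genes are 4.44% of the 45, against 2.15% called higher and 3.31% called in either direction among all genes tested, so the share is close to that background. No lipid gene was called lower, against 1.17% of all genes. None of the 45 had an unadjusted p under 0.05 in that direction, against 1367 of the 15694 genes tested. At an unadjusted p under 0.05, 9 of the 45 (20.0%) stood higher in dKO, against 10.5% of all genes, while in either direction the same 9 compared with 19.2%. The 3 dKO values lay all above or all below the 3 WT values for 15 of 45 lipid genes (33.3%) against 25.0% of all genes. Of these 15, 12 lay higher in dKO (26.7%, background 13.2%) and 3 lower (6.67%, background 11.7%). The median log2 fold change of the 45 was 0.11, beside -0.01 over all genes tested, and 30 of 45 were above 0 (66.7%) against 49.2% of all genes.

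**Figure D1:**
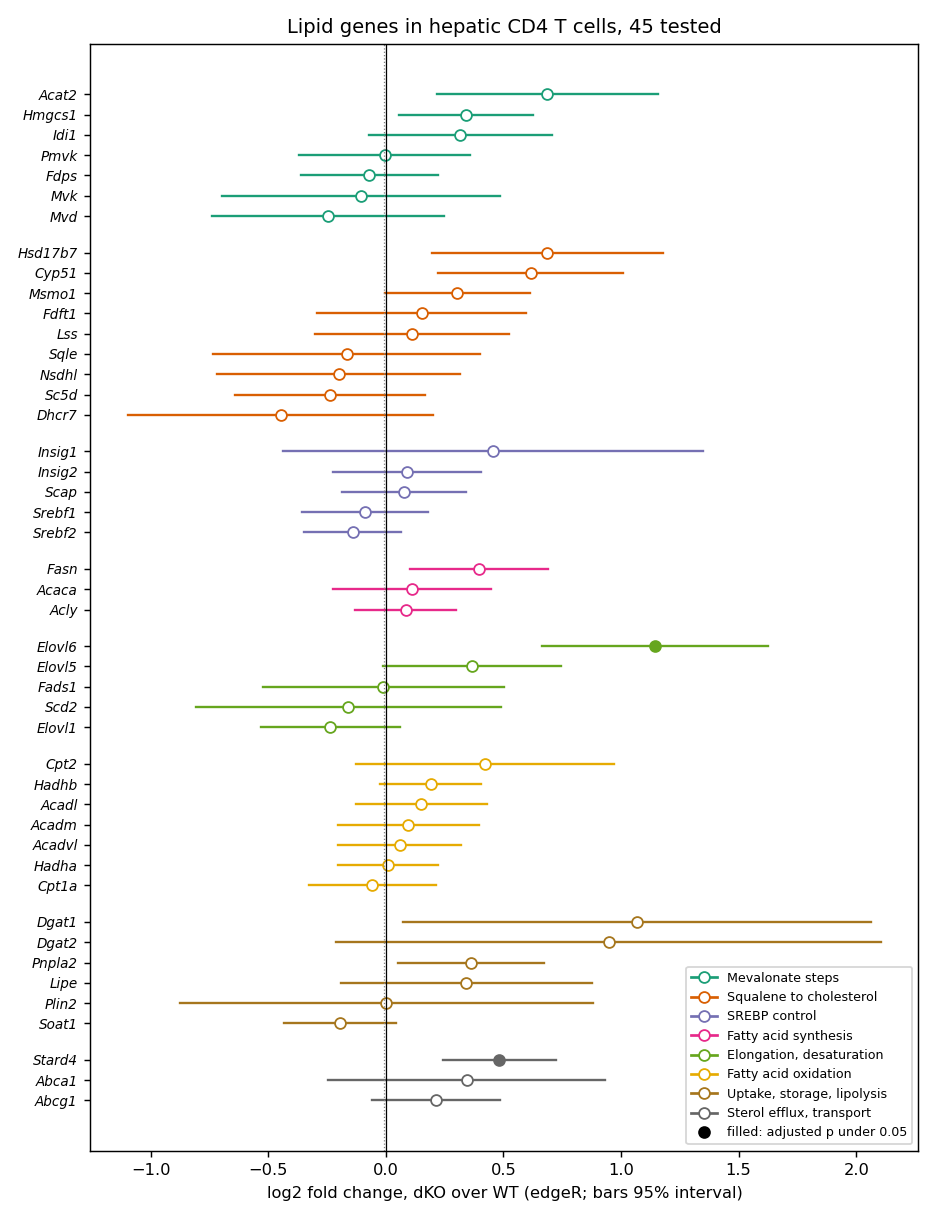
Log2 fold change of each of the 45 tested lipid genes, dKO over WT, grouped by role, with bars for the 95% interval of the edgeR fit and filled points for an adjusted p under 0.05. Elovl6 (1.15) and Stard4 (0.48) are the 2 filled points, and the dotted line marks the median over all genes tested (-0.01).

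Both calls changed when a library was left out. Without any one library, Stard4 was not called (edgeR adjusted p from 0.0537 without WT replicate 3, through 0.0563, 0.0590, 0.0760 and 0.0923 without WT replicate 1, WT replicate 2, dKO replicate 2 and dKO replicate 3, to 0.153 without dKO replicate 1). Elovl6 was called without WT replicate 1 (edgeR adjusted p = 0.0409) and without dKO replicate 3 (0.00234), and not without WT replicate 2 (0.0521), WT replicate 3 (0.0762), dKO replicate 1 (0.0843) or dKO replicate 2 (0.0849). With the Treg marker level as a covariate, an alternative chosen after seeing the data, neither gene was called, and the log2 fold change was 0.38 for Elovl6 (edgeR adjusted p = 0.962) and -0.35 for Stard4 (edgeR adjusted p = 0.907). The Treg marker sums of the 2 groups did not overlap, so that genotype and Treg marker level cannot be told apart in these 6 libraries. The 2 CD8 T cell genes summed to 199 to 237 CPM in WT and 296 to 338 CPM in dKO, and both were called higher. Hepatocyte markers, of which 13 of 13 were in the table, summed to 8.42 to 18.1 CPM in WT and 24.3 to 34.1 CPM in dKO, most of it transferrin (Trf), while albumin (Alb) stayed between 0.179 and 2.54 CPM. Macrophage markers summed to 6.90 to 20.9 CPM in WT and 5.75 to 8.57 CPM in dKO, with 6 of 15 at 0 in every library, among them the Kupffer cell genes Vsig4 and Marco, and Fcer1g called lower (log2 fold change -2.72, edgeR adjusted p = 0.0186). The highest sum was that of WT replicate 3, where Mpeg1 alone held 11.6 CPM, against 0 to 0.844 CPM in the other libraries. NK cell markers summed to 19.2 to 35.7 CPM in WT and 12.3 to 15.7 CPM in dKO. Endothelial markers (6 of 9 present) summed to 44.9 to 65.7 CPM in WT and 65.8 to 70.5 CPM in dKO. Most of the endothelial sum was Pecam1 (mean 48.0 CPM in WT and 55.0 CPM in dKO), whose groups overlapped (edgeR adjusted p = 0.572). Stab1 lay higher in every dKO library and was not called (log2 fold change 1.89, edgeR adjusted p = 0.0986). Cdh5, Stab2 and Eng were lower on average in dKO and Tek higher, and all were too low to be tested. Of these cell types, only hepatocyte and macrophage marker levels were used as covariates. The part of CD8 T, NK and endothelial cells in the 2 calls was not tested. The hepatocyte and macrophage covariates each rested on the 3 listed genes that passed the filter on low counts. With the hepatocyte marker level as a covariate no lipid gene was called, and the log2 fold change was 0.89 for Elovl6 and 0.29 for Stard4 (edgeR adjusted p = 0.303 and 0.495). The 3 hepatocyte genes differed in direction, with Trf (1.45) and Cyp2e1 (0.45) above 0 and Serpina1a (-0.47) below. Their mean log2(CPM + 1), centred over the 6 libraries, was -0.57 to -0.02 in WT and 0.12 to 0.46 in dKO. As the groups did not overlap, genotype and this level cannot be told apart in these 6 libraries. With the macrophage marker level none was called either, while the log2 fold changes were larger, 1.56 for Elovl6 and 0.75 for Stard4 (edgeR adjusted p = 0.124 and 0.123). The 3 macrophage genes differed in direction, with Cd68 (0.34) and Itgam (0.76) above 0 and Fcer1g below. Why the calls were lost was not tested. Xist, the transcript that coats the inactive X chromosome of female cells, was at 1656, 133 and 97.1 CPM in WT and at 1899, 796 and 1914 CPM in dKO. WT replicates 2 and 3 were lowest, and dKO replicate 2 lay between them and the remaining libraries. Both of the lowest libraries were WT, so Xist level and genotype cannot be fully told apart. With Xist as a covariate 6 lipid genes were called, Cyp51, Hsd17b7, Insig1 and Dgat2 beside Elovl6 and Stard4.

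The mevalonate steps held 7 of the genes. Acat2, which joins the first acetyl-CoA units, was at 9.25, 6.32 and 7.67 CPM in WT and at 15.4, 11.6 and 10.6 CPM in dKO. The lowest dKO library lay above the highest WT library, and the log2 fold change was 0.69 ± 0.22 (edgeR adjusted p = 0.103). Hmgcs1, the HMG-CoA synthase, was at 34.2, 28.0 and 38.3 CPM in WT and at 42.7, 45.1 and 40.1 CPM in dKO. Here too the groups did not overlap, with a smaller difference of 0.34 ± 0.13 on the log2 scale (edgeR adjusted p = 0.170). Idi1, which isomerises the isoprene unit, also lay higher in all 3 dKO libraries, at 12.3 to 14.0 CPM against 8.84 to 11.7 CPM (log2 fold change 0.32). The kinases and decarboxylase between them, Mvk (-0.10), Pmvk (0.00) and Mvd (-0.24), and the farnesyl diphosphate synthase Fdps (-0.07) had log2 fold changes at or below 0 and overlapping groups. The summed level of the 7 genes was 108 to 118 CPM in WT and 122 to 137 CPM in dKO, and their median log2 fold change was -0.00.

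Of the 9 genes from squalene to cholesterol, 5 had a log2 fold change above 0 and none was called. Cyp51, the lanosterol demethylase, was at 22.2, 26.5 and 26.5 CPM in WT and at 37.0, 49.9 and 29.4 CPM in dKO. All dKO libraries lay above WT and dKO replicate 3 was nearest to WT, and the log2 fold change was 0.62 ± 0.18 (edgeR adjusted p = 0.0866). Hsd17b7, which reduces the sterol ketone during demethylation, was at 8.97, 16.6 and 10.7 CPM in WT and at 16.3, 22.9 and 19.1 CPM in dKO. WT replicate 2 exceeded dKO replicate 1, so the groups overlapped, with a log2 fold change of 0.69 ± 0.23 (edgeR adjusted p = 0.119). Msmo1, the sterol methyl oxidase, lay at 14.6 to 16.0 CPM in WT and 18.1 to 19.8 CPM in dKO without overlap (log2 fold change 0.30, edgeR adjusted p = 0.266). The squalene-forming Fdft1 (0.15) and the cyclase Lss (0.11) differed little, and the epoxidase Sqle (-0.17), Nsdhl (-0.20), Sc5d (-0.24) and Dhcr7 (-0.45), a late reductase, had negative log2 fold changes with overlapping groups. Dhcr7 was low throughout, at 3.93 to 5.21 CPM in WT and 1.96 to 4.09 CPM in dKO. The summed level of the 9 genes was 127 to 173 CPM in WT and 154 to 197 CPM in dKO, so the sums overlapped.

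**Figure D2:**
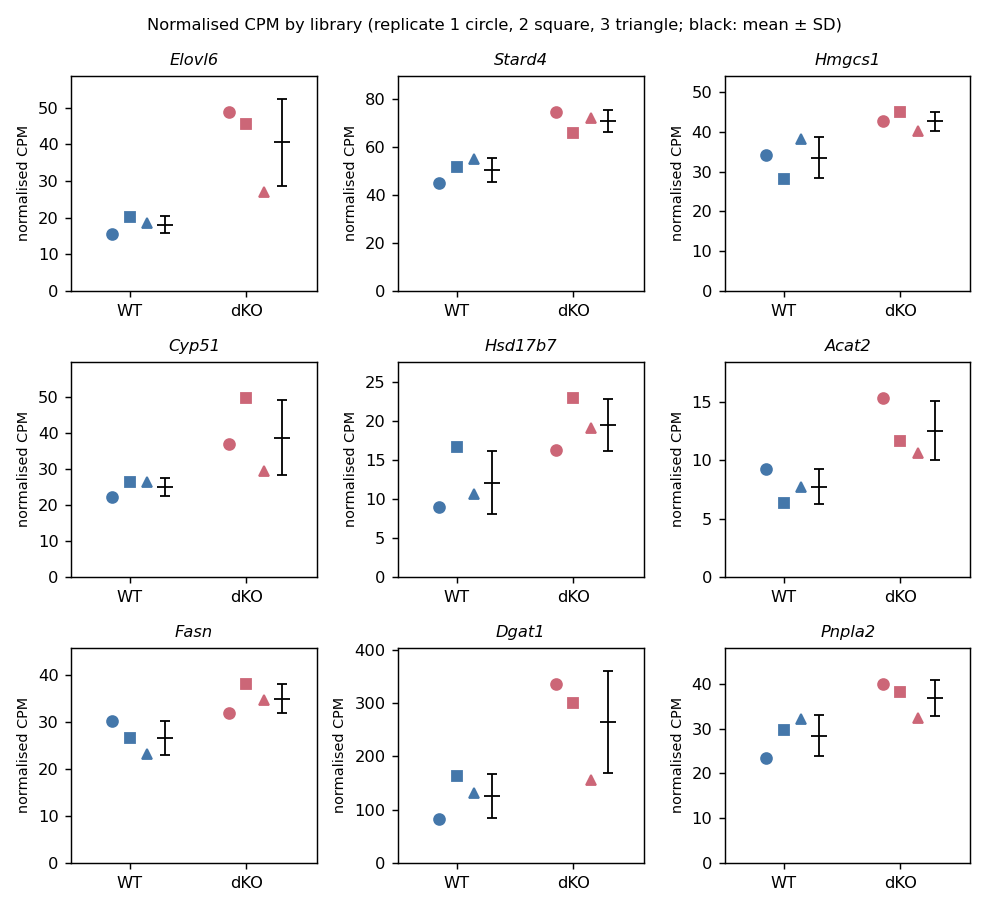
Normalised CPM of the 9 lipid genes with an unadjusted p under 0.05, 1 point per library (replicate 1 circle, 2 square, 3 triangle), with the mean and SD of 3 libraries in black and every axis starting at 0. The groups overlap for Hsd17b7 and Dgat1, and dKO replicate 3 is the lowest dKO library in 6 of the 9 panels.

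Promoter sequences are shown because SREBP proteins act through the sterol regulatory element, usually beside a CCAAT box bound by NF-Y. RefSeq promoters of mouse GRCm38.p6, 250 bases before to 50 bases after the start, matched 38 of the 48 genes and were not matched for Fads1, Sqle, Scd2, Stard4, Dgat2, Dgat1, Abcg1, Fdft1, Fdps and Scd1. Both strands were searched for the sterol regulatory element TCACNCCAC, the CCAAT box CCAAT, the E-box CACGTG and the Sp1 box GGGCGG. In the lines below, capitals mark the sterol regulatory element or a CCAAT box, which reads ATTGG on the reverse strand, and each sequence runs 5′ to 3′ on the strand of its gene. Hmgcs1 is shown for the element found in no other of the 38, and Elovl6 as the called gene with a promoter in the table. The short windows are shown for their CCAAT boxes, and their genes all had positive log2 fold changes. Other genes with CCAAT boxes had negative log2 fold changes and are not shown, among them Mvk, Mvd, Nsdhl and Dhcr7.
Hmgcs1, chr13:119690101-119690350, plus strand: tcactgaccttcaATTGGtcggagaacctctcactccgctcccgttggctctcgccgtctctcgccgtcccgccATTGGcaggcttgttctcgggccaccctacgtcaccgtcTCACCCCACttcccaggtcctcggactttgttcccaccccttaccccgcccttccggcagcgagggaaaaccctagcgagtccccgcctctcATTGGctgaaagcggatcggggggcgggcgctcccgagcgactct
Elovl6, chr3:129532136-129532385, plus strand: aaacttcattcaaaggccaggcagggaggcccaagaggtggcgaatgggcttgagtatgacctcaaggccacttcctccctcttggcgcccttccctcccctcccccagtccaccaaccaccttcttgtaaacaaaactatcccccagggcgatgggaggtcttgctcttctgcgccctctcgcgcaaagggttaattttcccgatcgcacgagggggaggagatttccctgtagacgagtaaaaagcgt
Cyp51, chr5:4104709-4104738, minus strand: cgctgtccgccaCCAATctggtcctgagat
Hsd17b7, chr1:169969206-169969235, minus strand: gagccgggccgagccttgATTGGtcgaggt
Fasn, chr11:120824589-120824618, minus strand: cctcggtgtCCAATTGGtttcgatgtggag
Idi1, chr13:8885576-8885605, plus strand: catggtccaaggtgccATTGGctggcgacc

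The sterol regulatory element of Hmgcs1 lay 137 bases before the start, and 3 CCAAT boxes stood in the printed stretch, the nearest 45 bases before the start. No GENCODE transcript of Hmgcs1 held the bases after this RefSeq start, so the place of the start is less sure for it. In Fasn a forward and a reverse CCAAT box overlap. The element was found for 1 of 38 genes (2.63%) and for 1.44% of the 27025 genes with a promoter in the table. Where a gene had several promoters, a match in any of them counted. Only exact matches to TCACNCCAC in this window were counted, so a promoter without a match can still hold a variant form of the element. A CCAAT box was in 24 of 38 (63.2%) against 41.1% of all, in 12 of the 13 cholesterol enzymes with a promoter (92.3%) and in 1 of 7 fatty acid oxidation genes (14.3%). E-boxes were in 23.7% against 8.09% of all and Sp1 boxes in 81.6% against 38.2%. This background held every gene with a promoter in the table, whether or not it passed the filter on low counts, so the shares are not between like sets. Enzymes with a CCAAT box included Cyp51 (log2 fold change 0.62) as well as Nsdhl (-0.20), and the Acat2 window held none. The Elovl6 window held none of the 4 motifs. These matches describe letters in a window and not binding.

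None of the 5 genes of SREBP control had an unadjusted p under 0.05, against 19.2% of all genes tested. Srebf2, which encodes the SREBP that serves cholesterol synthesis, was at 100.1, 98.8 and 92.5 CPM in WT and at 87.5, 89.9 and 86.8 CPM in dKO. All 3 dKO libraries lay below WT, by a narrow margin (log2 fold change -0.14 ± 0.10, edgeR adjusted p = 0.461). Srebf1, whose product serves fatty acid synthesis, was at 30.4, 31.6 and 34.7 CPM in WT and at 30.2, 27.3 and 33.3 CPM in dKO, and the groups overlapped (log2 fold change -0.09 ± 0.12, edgeR adjusted p = 0.761). Scap was at 32.7, 33.5 and 30.0 CPM in WT and at 30.0, 34.4 and 36.7 CPM in dKO, again overlapping (0.08 ± 0.12 on the log2 scale, edgeR adjusted p = 0.787). Insig1, itself an SREBP target as well as its brake, was at 17.4, 34.6 and 43.4 CPM in WT and at 47.2, 53.2 and 32.6 CPM in dKO. WT replicate 1 was far below the other WT libraries, the groups overlapped, and the log2 fold change was 0.45 ± 0.36 (edgeR adjusted p = 0.572). With Xist as a covariate it was 1.28 and Insig1 was called (edgeR adjusted p = 0.00204). Insig2, the second INSIG, was at 21.1, 25.2 and 20.9 CPM in WT and at 20.7, 26.8 and 23.9 CPM in dKO, with a log2 fold change of 0.09 ± 0.15 (edgeR adjusted p = 0.791). The 5 genes summed to 202 to 224 CPM in WT and 213 to 232 CPM in dKO, and these sums overlapped.

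Among the 3 fatty acid synthesis genes, Fasn, the fatty acid synthase, was at 30.2, 26.5 and 23.1 CPM in WT and at 32.0, 38.1 and 34.6 CPM in dKO. The groups did not overlap, and the log2 fold change was 0.40 ± 0.13 (edgeR adjusted p = 0.128). Acly, which makes cytosolic acetyl-CoA from citrate, was at 82.1, 84.1 and 88.2 CPM in WT and at 90.9, 84.0 and 94.6 CPM in dKO, overlapping (log2 fold change 0.08 ± 0.10, edgeR adjusted p = 0.705). Acaca, the carboxylase that makes malonyl-CoA, had a log2 fold change of 0.11 ± 0.16. Their summed level was 128 to 135 CPM in WT and 141 to 151 CPM in dKO.

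Elovl6 was at 15.6, 20.2 and 18.5 CPM in WT and at 48.9, 45.6 and 27.1 CPM in dKO. Every dKO library lay above every WT library, with dKO replicate 3 nearest to WT, and the log2 fold change was 1.15 ± 0.21 (95% interval 0.67 to 1.63, edgeR adjusted p = 0.0213). Elovl5, which lengthens polyunsaturated chains, was at 119.7, 92.4 and 88.7 CPM in WT and at 153, 137 and 98.7 CPM in dKO. WT replicate 1 exceeded dKO replicate 3, and the difference was 0.37 ± 0.17 on the log2 scale (edgeR adjusted p = 0.275). Elovl1, which makes very long chains, lay the other way, at 30.6 to 37.8 CPM in WT and 24.5 to 30.2 CPM in dKO without overlap (log2 fold change -0.24, edgeR adjusted p = 0.376). The desaturase genes Scd2 (-0.16) and Fads1 (-0.01) overlapped between groups. The other desaturases in the list were too low to be tested: Scd1 was at 0.138 to 0.655 CPM, and Fads2 was at 0 in all 3 dKO libraries and at 0 to 0.842 CPM in WT. Of the 5 tested, 2 were above 0, and the median log2 fold change was -0.01. All 7 listed genes summed to 179 to 224 CPM in WT and 200 to 262 CPM in dKO, and these sums overlapped.

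The 7 oxidation genes had log2 fold changes from -0.06 to 0.42, 6 of them above 0. None had an unadjusted p under 0.05, against 19.2% of all genes tested. Hadhb, a subunit of the mitochondrial trifunctional protein, was at 75.4, 67.1 and 67.0 CPM in WT and at 80.6, 80.5 and 77.9 CPM in dKO. All dKO libraries lay above WT (log2 fold change 0.19 ± 0.10, edgeR adjusted p = 0.322). Cpt2, which frees the acyl chain inside the mitochondrion, was at 4.42, 4.71 and 3.18 CPM in WT and at 4.82, 6.07 and 5.42 CPM in dKO. The gap between the groups was 0.112 CPM, and the log2 fold change was 0.42 ± 0.25 (edgeR adjusted p = 0.398). Hadha, the partner subunit of Hadhb, was at 73.0 to 79.2 CPM in WT and 72.9 to 80.0 CPM in dKO (0.01). The entry enzyme Cpt1a (-0.06) and the acyl-CoA dehydrogenases Acadm (0.10), Acadl (0.15) and Acadvl (0.06) overlapped between groups, and the sum of all 7 was 313 to 336 CPM in WT and 340 to 355 CPM in dKO.

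Of the storage genes none was called. Dgat1, an acyltransferase that makes triglyceride, was at 81.9, 163 and 131 CPM in WT and at 336, 299 and 155 CPM in dKO. dKO replicates 1 and 2 stood far above WT while dKO replicate 3 lay below WT replicate 2, and the log2 fold change was 1.07 ± 0.39 (95% interval 0.07 to 2.06, edgeR adjusted p = 0.230). Dgat2, the other enzyme of this step, was low and also lowest of its group in dKO replicate 3, at 1.93, 7.69 and 4.96 CPM in WT and at 11.1, 12.7 and 5.31 CPM in dKO (log2 fold change 0.95 ± 0.49, edgeR adjusted p = 0.353). Pnpla2, the first lipase of stored triglyceride, was at 23.5, 29.6 and 32.2 CPM in WT and at 40.0, 38.1 and 32.4 CPM in dKO. The groups were separated by 0.205 CPM, with a log2 fold change of 0.36 ± 0.14 (edgeR adjusted p = 0.182). The next lipase Lipe had a log2 fold change of 0.34, the droplet coat gene Plin2 of 0.00 with WT spread from 20.0 to 51.7 CPM, and the cholesterol acyltransferase Soat1 of -0.19, its dKO values of 37.3 to 42.5 CPM all below the WT values of 44.4 to 49.3 CPM. Cd36, a fatty acid receptor, was at 0 to 0.374 CPM and was not tested. All 7 listed genes summed to 183 to 301 CPM in WT and 283 to 467 CPM in dKO, and these sums overlapped.

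Stard4 was at 45.1, 51.8 and 55.0 CPM in WT and at 74.8, 65.8 and 72.1 CPM in dKO. The lowest dKO library was 10.8 CPM above the highest WT library, and the log2 fold change was 0.48 ± 0.11 (95% interval 0.24 to 0.72, edgeR adjusted p = 0.0340). Abcg1, a sterol exporter, was at 59.9, 43.6 and 57.9 CPM in WT and at 63.8, 63.3 and 60.5 CPM in dKO. WT replicate 2 was lowest and the groups were separated by 0.563 CPM (log2 fold change 0.21 ± 0.13, edgeR adjusted p = 0.384). Abca1, the exporter to lipid-poor apolipoprotein, was at 19.9, 8.68 and 11.0 CPM in WT and at 16.8, 17.4 and 15.7 CPM in dKO, so WT replicate 1 exceeded every dKO library (log2 fold change 0.34 ± 0.27, edgeR adjusted p = 0.538). The 3 transport genes summed to 104 to 125 CPM in WT and 146 to 155 CPM in dKO.

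**Figure D3:**
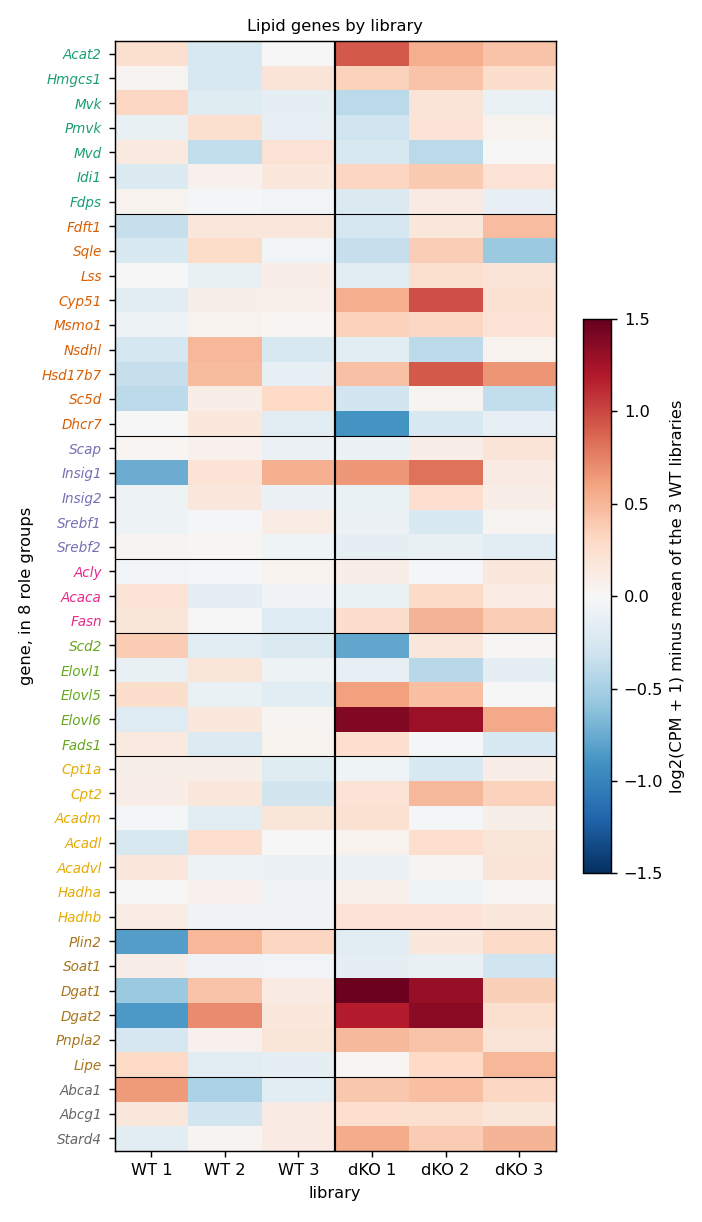
Level of the 45 tested lipid genes in each library as log2(CPM + 1) minus the mean of the 3 WT libraries, with genes in rows coloured by role and libraries in columns. Elovl6, Dgat1 and Dgat2 are darkest in dKO replicates 1 and 2 and paler in dKO replicate 3.

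In dKO, replicate 1 was the lowest library for 17 of 45 genes, replicate 2 for 9 and replicate 3 for 19, and the same libraries were the highest for 13, 21 and 11. In WT, replicate 1 was the lowest library for 19, replicate 2 for 12 and replicate 3 for 14, and they were the highest for 16, 18 and 11. For 6 of the 9 genes with an unadjusted p under 0.05 (Acat2, Hmgcs1, Cyp51, Elovl6, Dgat1 and Pnpla2) dKO replicate 3 was the lowest dKO library. Without dKO replicate 3, Cyp51 was called beside Elovl6 (edgeR adjusted p = 0.0328). Without WT replicate 2 the called gene was Hsd17b7 (edgeR adjusted p = 0.0249), and without WT replicate 1 Abca1 was called beside Elovl6 (edgeR adjusted p = 0.0373).

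Between genes, levels were compared as CPM per kilobase of exon in the GENCODE annotation of GRCm38. The length joins the exons of all annotated transcripts of a gene, and whether reads covered them evenly was not checked, so the order is approximate. Dgat1 had the highest level per kilobase in both groups, a mean of 41.0 in WT and 86.2 in dKO. Acadl stood at 30.4 in WT and 33.7 in dKO, and Elovl5 at 28.5 in WT and 36.8 in dKO, so their order differed between the groups. Srebf2 stood at 13.5 and 12.3, above Srebf1 at 5.72 and 5.37. Elovl6, at 2.82 and 6.30 per kilobase, stayed below Elovl5 and Elovl1 (12.2 and 10.3) in both groups. Scd2 was at 7.17 and 6.36 and Scd1 at 0.0794 and 0.0584. Exons of Cyp51, Fdft1, Srebf1, Elovl1, Acadvl and Hadha overlap those of coding genes on the other strand, and those of Fdps overlap a gene on its own strand. The strand used in counting was not stated, so reads from the shared stretches cannot be told apart. Those stretches held 53 bases in Elovl1, 75 in Hadha, 109 in Srebf1, 166 in Cyp51, 774 in Fdft1, 1124 in Fdps and 1151 in Acadvl. Exon lengths of these genes ran from 2.69 kilobases (Acadvl) to 8.73 kilobases (Hadha).

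Lipid genes outside the 48 were counted over 5 lists holding 116 genes, of which 110 were in the table and 90 were tested. There, 1 was called higher (background 2.15%) and 1 lower (background 1.17%), 45 lay above 0 and 45 below, and the median log2 fold change was 0.00. Hacd3, the dehydratase of the elongation cycle that Elovl6 opens, was at 129, 177 and 159 CPM in WT and at 270.1, 244 and 215 CPM in dKO. The groups did not overlap, and Hacd3 rose by 0.65 ± 0.13 on the log2 scale (edgeR adjusted p = 0.0209). Mlx, the partner of the sugar-responsive factors that act on lipid synthesis genes, fell from 58.0, 64.5 and 57.8 CPM in WT to 45.4, 38.6 and 43.1 CPM in dKO (log2 fold change -0.50 ± 0.11, edgeR adjusted p = 0.0257). Hacd3 was not called without WT replicate 3, dKO replicate 1 or dKO replicate 2 (edgeR adjusted p = 0.0612, 0.122 and 0.0902). Mlx was called only without WT replicate 1 among the fits that left out 1 library (edgeR adjusted p = 0.0180), and not without WT replicate 2 (0.0688), WT replicate 3 (0.0579), dKO replicate 1 (0.0756), dKO replicate 2 (0.123) or dKO replicate 3 (0.0656).

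**Figure D4:**
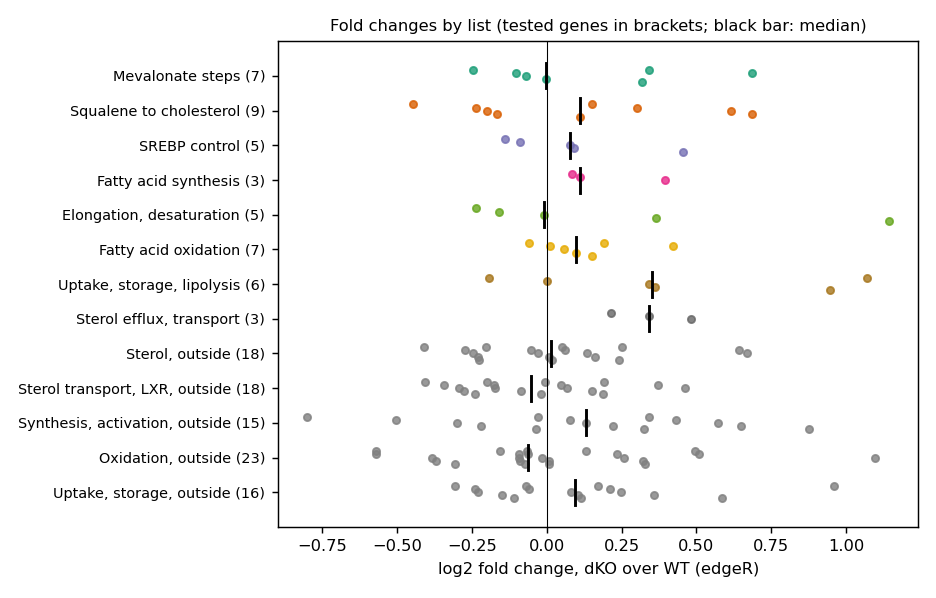
Log2 fold changes, dKO over WT, of the tested lipid genes in 8 role groups (colour) and in 5 lists of other lipid genes (grey), 1 point per gene, with a black bar at each median. Medians of uptake and storage (0.35) and of sterol efflux and transport (0.34) lie to the right of the others, and they rest on 6 and 3 genes.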

How the data were processed

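Libraries of sorted hepatic CD4 T cells, 3 WT and 3 dKO, were analysed. Per the study, they were independent biological replicates, sequenced single end and mapped to a genome it calls mm10/GRCm39. The submitters' processing notes name cutadapt and Bowtie2. The sources used here name no counting tool and no strand setting. The authors deposited gene counts and a table they call TPM, whose columns each sum to 1000000 without length scaling, so it was treated as CPM. Of its 170580 values, 100% gave back the deposited count within 0.01 reads, and edgeR on those recovered reads called 520 genes.

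The deposited counts were tested with edgeR 4.0.16 (quasi-likelihood, TMM scaling, filterByExpr with a minimum count of 10 and total of 15) in R 4.3.3. Benjamini-Hochberg adjustment ran over the 15694 genes tested, and genes with an adjusted p under 0.05 were called. CPM values in the text are TMM-scaled. The biological coefficient of variation was 14.5%. A single gene cannot go below p = 0.1 in an exact test of 3 against 3.

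The lipid genes and lists were chosen with earlier results of these data known. Genes given in every library were those called, the 2 of each role group with the smallest p, the SREBP control genes and the called genes of the other lists. Dgat2 and Abca1 were added as partners of Dgat1 and Abcg1. Each count test was tested on simulated data with known changes. The alternatives were 18 planned and 2 added settings, run with DESeq2 1.42.0 and limma 3.58.1 where named. A deposited mapping summary was not used.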

Additional observations from a re-analysis of the deposited data

How the results depend on the processing

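Called lipid genes numbered 2 higher and 0 lower (edgeR). At an unadjusted p under 0.05 the numbers were 9 and 0 of 45, against 1653 and 1367 of the 15694 genes tested. Elovl6 and Stard4 were called under DESeq2 median-of-ratios, upper-quartile and library-total scaling, DESeq2, limma-voom, limma on log2(CPM + 1) and log2(CPM + 0.1), and recovered counts. The number of lipid genes called higher was 5 with no filter on low counts, 0 with the hepatocyte, macrophage or Treg marker covariate, 6 with the Xist covariate and 0 to 2 leaving out 1 library, and 0 were called lower in every alternative. Over all genes, 337 higher and 183 lower became 756 and 560 with no filter, 48 and 61 with the hepatocyte covariate, 86 and 26 with the macrophage covariate, 2 and 2 with the Treg covariate, and 90 to 447 and 42 to 378 leaving out 1 library. Other lipid genes called, 1 higher and 1 lower, became 7 and 4 with no filter, 2 and 3 with DESeq2, 0 and 0 with the hepatocyte, macrophage or Treg covariate, 3 higher with the Xist covariate, and 0 to 3 in each direction leaving out 1 library. The lower count was 2 with median-of-ratios factors, 3 with upper-quartile factors, 2 with library totals and 2 with limma on log2(CPM + 1). Of the 45 lipid genes, 20 changed sign with the Treg covariate, 9 with the hepatocyte, 11 with the macrophage and 7 with the Xist covariate. Among the genes given in every library by rule, signs reversed with the Treg covariate for Hsd17b7 (-1.30), Insig1 (-1.56), Insig2 (-0.28), Acly (-0.21), Dgat1 (-1.5), Pnpla2 (-0.55), Stard4 (-0.35) and Hacd3 (-0.76), with the hepatocyte covariate for Insig1 (-0.12), and with the macrophage covariate for Scap (-0.14), Insig2 (-0.053), Srebf1 (0.056) and Cpt2 (-0.10). The cause of these changes was not tested.

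Samples with the same replicate number did not deviate together (correlations 0.04, 0.02 and -0.08 across genes), and 2 of 6 libraries correlated best with their own number. With a replicate block, 1 lipid gene (Elovl6) was called, 2 other lipid genes were called higher, and Stard4 and Mlx were not called (edgeR adjusted p of 0.0545 and 0.0520). With the Xist covariate Mlx was not called either (edgeR adjusted p of 0.0745). Leaving out a library leaves 2 in its group.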
